A study of Mus musculus with 5 samples.

Results

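Matrix metalloproteinases (MMPs) and the tissue inhibitors that block them (TIMPs) were followed in mouse bone marrow-derived macrophages as a set of 9 genes. They were chosen by name, with earlier results of these data known. The 6 protease genes were Mmp8, Mmp9, Mmp12, Mmp13, Mmp14 and Mmp19, and the 3 inhibitor genes were Timp1, Timp2 and Timp3, out of 49246 genes with a transcript in every library. Each was found under a single Ensembl gene. All cells came from wild type mice of the C57BL/6 strain, were grown from bone marrow for 6 days, and had received 10 ng/ml interleukin 4 (IL-4), which turns macrophages to their alternative state, for 24 h before RNA was taken. In 3 libraries (replicates 3, 4 and 5) the cells had first been given 30 µM CBR-5884, which blocks PHGDH, an enzyme of serine synthesis, and in 2 libraries (replicates 3 and 5) they had been given solvent. Whether the replicates are separate animals or cultures is not in the labels. The p-values thus rest on the spread between libraries, which may be technical. The cells were macrophages made in culture from marrow, of which 96% carried F4/80 and CD11b per the labels, and no cells without IL-4 are part of the comparison.

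MMPs are zinc-dependent enzymes that are secreted or held at the cell surface as inactive precursors and cut collagens, elastin and other matrix proteins once activated. TIMPs close the active site of the mature enzymes, so the supply of proteases and inhibitors together sets how much matrix is cut. Macrophages are a main source of MMP12, called macrophage elastase, and make several other members as they enter and remodel tissue.

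Levels are FPKM, the Cufflinks measure of fragments scaled by transcript length and by mapped fragments, summed over the transcripts of a gene. In order of the mean over 5 libraries the genes ran Mmp12, Timp2, Mmp8, Mmp19, Mmp13, Mmp14, Timp1, Timp3 and Mmp9, from 3713 to 0.60 FPKM. Neighbours in that order did not overlap across the 5 libraries, apart from Mmp14 and Timp1, of which Mmp14 was the higher in 3 libraries. Mmp12 ranked 10 among all genes by mean FPKM.

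Of the 6 proteases, Mmp8, Mmp12, Mmp13 and Mmp19 were higher in every CBR-5884 library than in either solvent library, and Mmp9 and Mmp14 were not. The ratio of group means ran from 1.36 for Mmp19 to 1.72 for Mmp12. None of the 8 members that could be tested passed the threshold (limma, Benjamini-Hochberg adjusted p below 0.05 over all 10770 genes with a mean of at least 1 FPKM), while 0.223% of all genes tested did, 0.0464% as higher and 0.176% as lower. At an unadjusted limma p below 0.05 there were 4 of the 8, all of them higher, beside 7.24% of all genes tested that were higher at that level. Groups did not overlap for the same 4 members, with CBR-5884 above, as for 16.6% of all genes tested. The median log2 fold change was 0.39 over the 8 members and -0.03 over all genes tested. Since the members were chosen with earlier results of these data known, these counts and medians are a description and not a test of the family. Mmp9 failed the filter on low values and was not tested.

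**Figure D1:**
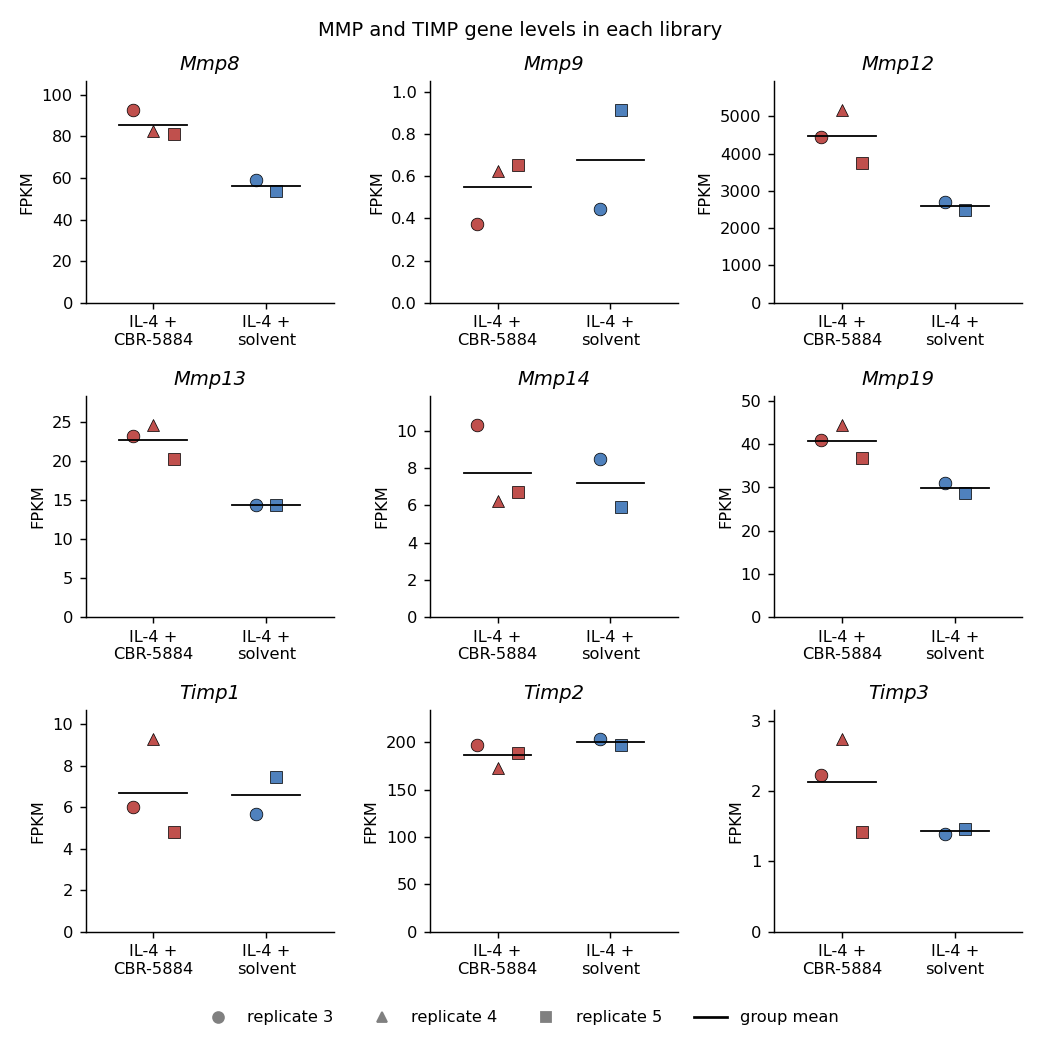
FPKM of each of the 9 genes (y axes, linear, from 0) in the 3 libraries with IL-4 and CBR-5884 (red, left) and the 2 with IL-4 and solvent (blue, right); symbols mark the replicate number and bars the group mean. The groups do not overlap for Mmp8, Mmp12, Mmp13 and Mmp19, and overlap for the other members.

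Mmp8, Mmp12 and Mmp13 lie in 1 cluster of MMP genes on chromosome 9 (GRCm38, 7272514 to 7699585). The sequences upstream of their starts are shown because these neighbours were higher together, and that of Timp2 because it is the inhibitor of the highest level. Each window holds the 250 bases before a RefSeq start (build GRCm38.p6), 5′ to 3′ on the strand of the gene. Capitals mark matches to the motifs searched on both strands, which were TGANTCA for AP-1, TTC and GAA with 4 bases between them for STAT6, TGACNNNGC for NRF2 and TATAAA for the TATA box.
Mmp13, chr9:7272264-7272513, plus strand: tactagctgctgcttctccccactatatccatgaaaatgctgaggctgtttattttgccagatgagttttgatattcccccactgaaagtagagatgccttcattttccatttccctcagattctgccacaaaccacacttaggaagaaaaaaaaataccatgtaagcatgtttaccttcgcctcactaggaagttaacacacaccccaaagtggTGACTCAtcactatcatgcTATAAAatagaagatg
Mmp12 upstream start, chr9:7344147-7344396, plus strand: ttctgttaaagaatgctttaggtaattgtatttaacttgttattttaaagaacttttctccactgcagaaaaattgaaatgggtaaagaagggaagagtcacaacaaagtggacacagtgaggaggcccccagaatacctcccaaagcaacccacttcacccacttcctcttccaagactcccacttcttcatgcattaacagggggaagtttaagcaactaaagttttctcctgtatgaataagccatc
Mmp12 downstream start, chr9:7347124-7347373, plus strand: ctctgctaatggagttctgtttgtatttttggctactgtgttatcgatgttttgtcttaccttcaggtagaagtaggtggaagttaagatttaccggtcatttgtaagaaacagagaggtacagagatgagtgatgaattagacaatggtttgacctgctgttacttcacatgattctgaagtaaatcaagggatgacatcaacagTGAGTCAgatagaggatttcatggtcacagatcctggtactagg
Mmp8, chr9:7558179-7558428, plus strand: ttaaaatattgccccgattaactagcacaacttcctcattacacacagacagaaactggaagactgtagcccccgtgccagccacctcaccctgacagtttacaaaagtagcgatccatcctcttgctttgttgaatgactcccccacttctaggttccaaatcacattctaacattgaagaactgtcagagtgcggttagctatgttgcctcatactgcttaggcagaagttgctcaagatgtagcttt
Timp2, chr11:118355412-118355661, minus strand: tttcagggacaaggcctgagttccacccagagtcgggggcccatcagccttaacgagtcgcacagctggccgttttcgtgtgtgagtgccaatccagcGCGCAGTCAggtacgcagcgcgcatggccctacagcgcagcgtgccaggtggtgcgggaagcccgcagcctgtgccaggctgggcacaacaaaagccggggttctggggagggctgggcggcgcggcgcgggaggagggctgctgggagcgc

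The Mmp13 window held 1 AP-1 match, TGACTCA, whose first base is at -35 from the start, and a TATA match at -16. The window of the downstream Mmp12 start held the AP-1 match TGAGTCA at -44, and the windows of the upstream Mmp12 start and of Mmp8 held no match to any of the 4 motifs. The single match of Timp2 was to the NRF2 letters at -152, on the opposite strand. Of the 32851 windows of all genes, 6.75% held an AP-1 match, 5.85% a STAT6 match, 10.2% an NRF2 match and 12.4% a TATA match. Of the 9 members, 7 have a window in the table, with 8 windows in all. The windows of Mmp14, Timp1 and Timp3 held no match. The 4 windows of Mmp8, Mmp12 and Mmp13 were 39.6% to 44.8% G and C, and those of Mmp14 and the 3 inhibitors 54.4% to 68%. A match is a run of letters and not a measured binding site.

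Mmp12 encodes macrophage elastase, which cuts elastin (chromosome 9, 7344381 to 7369499, plus strand). It stood at 4455, 5171 and 3753 FPKM in CBR-5884 replicates 3, 4 and 5, against 2710 and 2475 FPKM in solvent replicates 3 and 5. The lowest CBR-5884 library was thus above the highest solvent library, and the CBR-5884 libraries were spread more widely. The means were 4459 ± 709.1 FPKM with CBR-5884 and 2593 ± 166.1 with solvent (SD, n = 3 and 2). On the log2 scale the fold change was 0.77 (SE 0.15, limma adjusted p = 0.132). All fold changes of FPKM here are differences of log2(FPKM + 1).

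The Mmp12 level was assembled from several transcripts. Mmp12-203, a model of 1452 nt that begins 2977 nt upstream of the other start, held 62.4% to 84.8% of the gene's FPKM with CBR-5884 and 71.8% to 85.1% with solvent. Mmp12-201, of 3607 nt, held 9.33% to 15.2% in the CBR-5884 libraries and 10.97% to 14.9% in the solvent libraries. Those 2 models share 1411 nt, while 41 nt of Mmp12-203 lie outside Mmp12-201 and 2196 nt of Mmp12-201 lie outside Mmp12-203. Mmp12-202 was listed at 0 in all 5 libraries. Transcripts that Cufflinks assembled held 28.2% in CBR-5884 replicate 3 and 17.2% in solvent replicate 3, and none in the other libraries. Each of the models Mmp12-203 and Mmp12-201 was itself higher in every CBR-5884 library than in either solvent library. Mmp12-203 was at 2781, 4384 and 3182 FPKM with CBR-5884, against 1945 and 2107 with solvent.

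**Figure D2:**
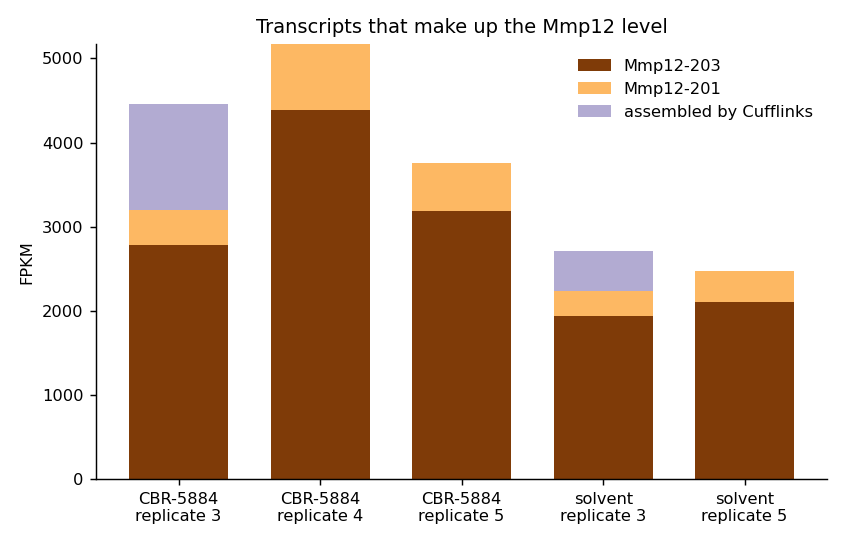
FPKM (y axis, linear, from 0) of the transcripts summed into the Mmp12 level, stacked for each of the 3 CBR-5884 and the 2 solvent libraries. Mmp12-203 is the largest part in each library, and assembled transcripts appear in replicate 3 of both groups.

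Since the split of reads between transcripts of different length changes a summed FPKM, each gene was also expressed without division by length, as the sum of FPKM times transcript length in kilobases (FPM, fragments scaled by mapped fragments only). This measure was added after the data were seen. On it Mmp12 was at 6471, 9205 and 6679 FPM with CBR-5884, against 4409 and 4388 with solvent. The 2 solvent libraries were closer to each other than in FPKM, and CBR-5884 replicate 4 stood above the other CBR-5884 libraries. On the log2 scale the fold change was 0.74 (SE 0.16, limma adjusted p = 0.0675).

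Mmp8 encodes collagenase-2, also called neutrophil collagenase, which cuts fibrillar collagen (chromosome 9, 7558456 to 7568485, plus strand). It was at 92.8, 82.5 and 81.3 FPKM with CBR-5884, against 58.9 and 53.6 FPKM with solvent. Both groups were tight beside the distance between them. The means were 85.5 ± 6.29 FPKM with CBR-5884 and 56.2 ± 3.78 with solvent (SD, n = 3 and 2), with a log2 fold change of 0.60 (SE 0.08, limma adjusted p = 0.102). Its p ranked 137 of 10770. Coverage implied 6048 to 6836 reads in the CBR-5884 libraries and 3641 to 4122 in the solvent libraries. In FPM it was at 225, 200.1 and 197 with CBR-5884, against 143 and 129 with solvent, and there it passed the threshold (log2 fold change 0.61, SE 0.08, limma adjusted p = 0.0278).

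Mmp13 encodes collagenase-3, the main collagenase of interstitial tissue in mice (chromosome 9, 7272514 to 7283331, plus strand). It was at 23.3, 24.7 and 20.3 FPKM with CBR-5884, against 14.38 and 14.41 FPKM with solvent. The solvent libraries were nearly equal, and each CBR-5884 library was well above them. Its means were 22.8 ± 2.26 FPKM with CBR-5884 and 14.4 ± 0.019 with solvent (SD, n = 3 and 2), with a log2 fold change of 0.62 (SE 0.09, limma adjusted p = 0.115). A single reference transcript carried the level in every library, with 1665 to 1998 reads implied with CBR-5884 and 1090 to 1109 with solvent. In FPM Mmp13 also passed (log2 fold change 0.64, SE 0.09, limma adjusted p = 0.0298). As a single transcript carried it, its FPM is its FPKM times a constant, and the split of reads between transcripts does not enter. For Mmp13 the measures differ only in the weight of the pseudocount and in the fit over all genes.

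Mmp8 and Mmp13 were the 2 members that passed on FPM, where 2.70% of all genes tested passed in either direction and 1.02% in the higher direction. On FPKM 0.223% of all genes tested passed in either direction. For Mmp8 too FPM is FPKM times a constant, except in solvent replicate 5, where an assembled transcript held 17.97% of the level.

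Mmp19, whose product cuts basement membrane and other matrix proteins, lies outside the cluster (chromosome 10, 128790910 to 128800824, plus strand). It was at 41.0, 44.5 and 36.8 FPKM with CBR-5884, against 31.1 and 28.8 FPKM with solvent. The gap between the groups was smaller than for the cluster genes. The means were 40.8 ± 3.88 FPKM with CBR-5884 and 29.9 ± 1.67 with solvent (SD, n = 3 and 2), with a log2 fold change of 0.43 (SE 0.10, limma adjusted p = 0.147). The level of Mmp19 carries a doubt, because its exons share 789 nt with Tmem198b on the opposite strand and no source used here states whether the estimates used strand. Tmem198b was at 25.2, 36.9 and 24.9 FPKM with CBR-5884, against 22.8 and 30.5 with solvent, groups that overlap. In FPM the adjusted p of Mmp19 was 0.0578 (limma, log2 fold change 0.44).

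The 95% intervals that Cufflinks gave within each library did not meet between the groups for Mmp8, Mmp13 and Mmp19. The lowest CBR-5884 lower bound was 79.0 FPKM for the Mmp8 reference transcript, against a highest solvent upper bound of 60.8, and in solvent replicate 5 a further 17.97% of the Mmp8 level came from an assembled transcript outside this interval. For Mmp13 these bounds were 19.2 with CBR-5884 and 15.3 with solvent, and for Mmp19 34.8 with CBR-5884 and 32.8 with solvent. They cover estimation within a library only.

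**Figure D3:**
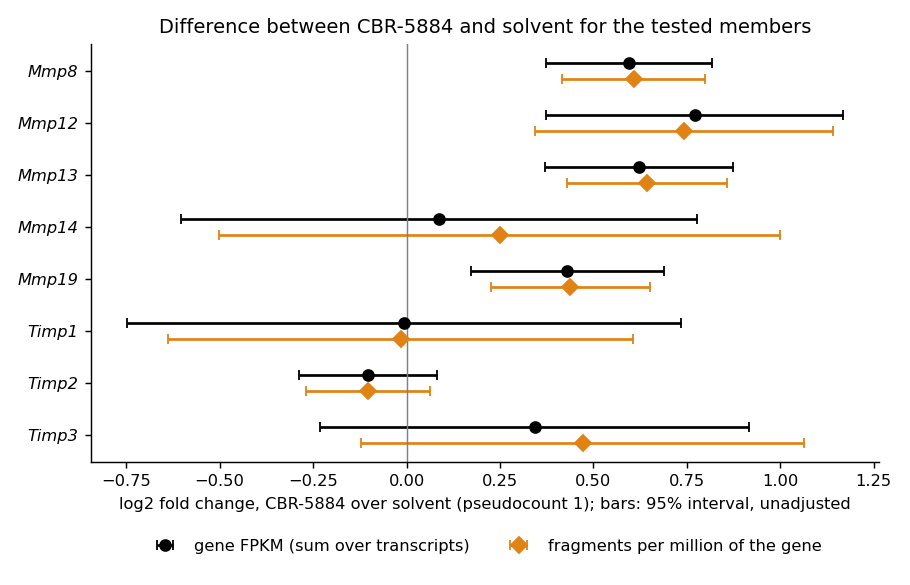
Log2 fold change of CBR-5884 over solvent (x axis) for the 8 tested members, from gene FPKM (black circles) and from FPM (orange diamonds), with unadjusted 95% intervals of the limma fit as bars. The intervals of Mmp8, Mmp12, Mmp13 and Mmp19 lie above 0 on both measures, and those of Mmp14 and the 3 TIMP genes include 0.

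Mmp14 and Mmp9 did not follow the 4 genes above. Mmp14 encodes the membrane-anchored protease that activates the precursor of MMP2 at the cell surface (chromosome 14, 54431612 to 54445364, plus strand). It was at 10.3, 6.21 and 6.72 FPKM with CBR-5884, against 8.47 and 5.88 FPKM with solvent. The groups overlapped, with a log2 fold change of 0.09 (SE 0.26, 95% interval -0.60 to 0.78, limma adjusted p = 0.873). The interval leaves room for a change as large as that of Mmp8 or Mmp13. Its level depended on the transcripts counted: assembled transcripts with a longer end held 70.8% to 100% of it with CBR-5884, and 100% in solvent replicate 3 and 0% in solvent replicate 5. With reference transcripts only, its log2 fold change turned to -0.27, and it also turned negative without CBR-5884 replicate 3 (-0.11) and without solvent replicate 5 (-0.14).

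Mmp9 encodes gelatinase B, which cuts denatured collagen and collagen of basement membranes (chromosome 2, 164940780 to 164955850, plus strand). It was at 0.37, 0.62 and 0.65 FPKM with CBR-5884, against 0.44 and 0.92 FPKM with solvent, values that overlap. Coverage implied 36 to 64 reads in the CBR-5884 libraries and 41 to 82 in the solvent libraries, so few reads stand behind each value. Without the filter on low values its log2 fold change was -0.11 (limma adjusted p = 0.804). Lcn2, whose product binds MMP9, was at 0.35, 0.05 and 0.15 FPKM with CBR-5884, against 1.19 and 0.61 with solvent, and was too low to be tested.

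Among the inhibitors Timp2 was by far the most abundant. Timp2 encodes an inhibitor that also bridges MMP14 to the MMP2 precursor (chromosome 11, 118301069 to 118355740, minus strand). It was at 197.1, 173 and 189 FPKM with CBR-5884, against 203 and 196.7 FPKM with solvent. One CBR-5884 library lay just above the lower solvent library, so the groups overlapped narrowly. The means were 186 ± 12.3 FPKM with CBR-5884 and 199.995 ± 4.66 with solvent (SD, n = 3 and 2), with a log2 fold change of -0.10 (SE 0.07, 95% interval -0.29 to 0.08, limma adjusted p = 0.465). The upper end of that interval was below the fold changes of Mmp8, Mmp12, Mmp13 and Mmp19.

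Timp1, the inhibitor that binds the MMP9 precursor (chromosome X, 20870166 to 20874735, plus strand), was at 6.02, 9.28 and 4.81 FPKM with CBR-5884, against 5.69 and 7.46 FPKM with solvent. The 2 ends of its range were both CBR-5884 libraries. Its log2 fold change of -0.0066 (SE 0.28, 95% interval -0.75 to 0.74, limma adjusted p = 0.991) had no stable sign, and turned positive with other scalings. The gene lies within Syn1 on the opposite strand without a shared exon.

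Timp3, an inhibitor that stays bound to the matrix and also blocks proteases of the ADAM family (chromosome 10, 86300372 to 86349506, plus strand), was at 2.22, 2.74 and 1.42 FPKM with CBR-5884, against 1.39 and 1.46 FPKM with solvent. CBR-5884 replicates 3 and 4 were above both solvent libraries and replicate 5 lay between them. The fold change on the log2 scale was 0.34 (SE 0.22, limma adjusted p = 0.437). Its annotated exons overlap those of Syn3 on the opposite strand by 1733 nt, and Syn3 was at 0.065 FPKM or less in every library.

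FPKM is per length, so the levels of proteases and inhibitors can be set side by side. Mmp12 made up 96.3% to 97.0% of the summed FPKM of the 6 MMP members with CBR-5884 and 96.0% with solvent. Timp2 made up 93.5% to 96.8% of the inhibitor sum in the CBR-5884 libraries and 95.7% to 96.6% of it in the solvent libraries. The ratio of summed MMP to summed TIMP FPKM was 22.5, 28.8 and 20.0 in CBR-5884 replicates 3, 4 and 5, against 13.4 and 12.5 in solvent replicates 3 and 5. Without Mmp12 it was 0.82, 0.86 and 0.75 with CBR-5884 and 0.54 and 0.50 with solvent. Both ratios were thus higher in every CBR-5884 library than in either solvent library, and they are given without a test. They describe RNA and say nothing of enzyme activity. The size of the ratio with Mmp12 also rests on how Cufflinks split the Mmp12 reads between transcripts of different length.

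**Figure D4:**
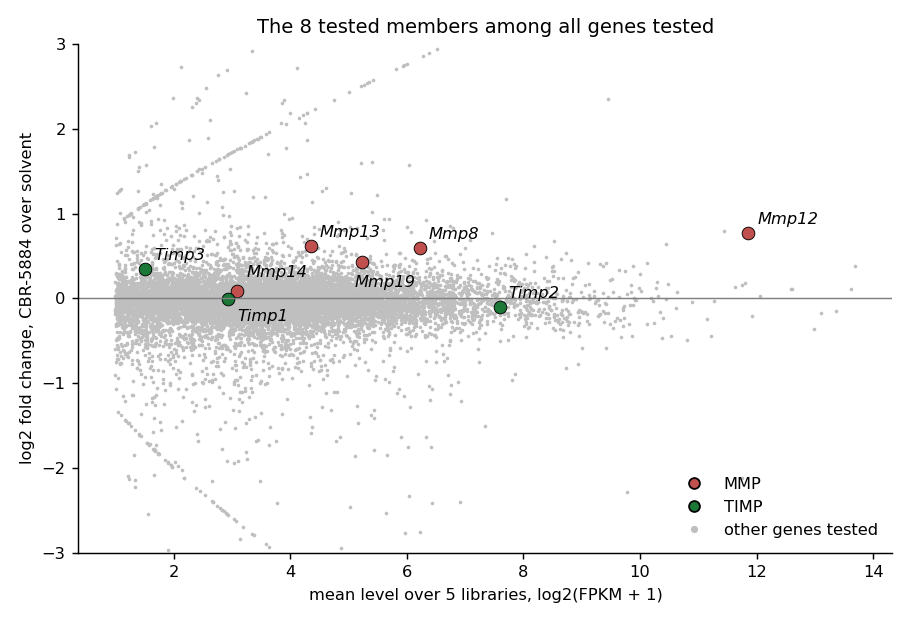
Log2 fold change of CBR-5884 over solvent (y axis) against mean level over the 5 libraries (x axis, log2(FPKM + 1)) for all 10770 genes tested (grey), with the tested MMP (red) and TIMP (green) genes named; 53 genes beyond a log2 fold change of 3 in size are not drawn. Mmp12 sits at the high end of the level axis with a fold change of 0.77, and Timp2 lies just under 0.

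The chromosome 9 cluster holds 10 MMP genes within 427 kb, of which the 7 others were at 5.84 FPKM or less in any library. Mmp27, which lies beside Mmp8, was at 4.49, 2.02 and 5.84 FPKM with CBR-5884, against 3.59 and 5.38 with solvent, and the groups overlapped (log2 fold change -0.16, limma adjusted p = 0.846). Mmp1a, Mmp1b, Mmp7 and Mmp20 were listed at 0 in all 5 libraries. Mmp3 (stromelysin-1) and Mmp10 (stromelysin-2) did not exceed 0.019 and 0.21 FPKM in any library. The high levels in the cluster were those of Mmp12, Mmp8 and Mmp13. The exons of Mmp12 overlap those of Mmp1b on the opposite strand by 157 nt.

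**Figure D5:**
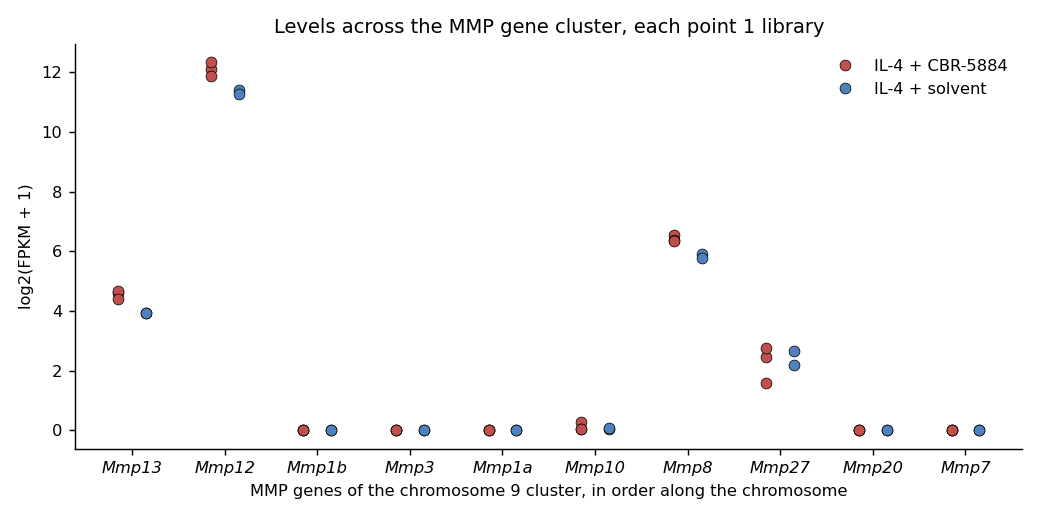
Level in log2(FPKM + 1) (y axis) of the 10 MMP genes of the chromosome 9 cluster in their order along the chromosome (x axis), with each CBR-5884 library in red and each solvent library in blue. Mmp13, Mmp12 and Mmp8 show CBR-5884 above solvent, Mmp27 overlaps, and the other genes are at or near 0.

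Of 19 other MMP, TIMP and related genes, those of the cluster included, 2 could be tested and neither passed, and 6 were listed at 0 in all libraries, Timp4 among them. Besides Mmp27 the tested gene was Mmp2, gelatinase A, at 1.42, 1.39 and 3.48 FPKM with CBR-5884, against 1.02 and 1.31 with solvent (log2 fold change 0.45, SE 0.34, limma adjusted p = 0.501). Groups did not overlap for Mmp2, with CBR-5884 above, as for 16.6% of all genes tested. Only CBR-5884 replicate 5 stood well above the other libraries, and the nearest values were 1.39 FPKM with CBR-5884 and 1.31 with solvent.

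The genes around MMP activity were described by lists, and in none did a gene pass over all genes tested. Signs in the lists are to be read beside all genes tested, of which 44.3% had a positive log2 fold change. That share was 51.7% once each library was scaled to the same FPKM sum (TPM scaling). Of the 9 tested genes for MMP activation, docking and clearance, 5 had a positive log2 fold change and 4 a negative one (median 0.01). Cd44, a hyaluronan receptor that holds MMPs at the cell surface, was at 205, 248 and 264 FPKM with CBR-5884, against 188 and 177 with solvent (log2 fold change 0.38, limma adjusted p = 0.218). Furin, the convertase that activates the MMP14 precursor, was at 48.2, 45.4 and 49.2 FPKM with CBR-5884, against 55.3 and 52.6 with solvent (log2 fold change -0.18, limma adjusted p = 0.216). Cd44 was thus higher and Furin lower in all CBR-5884 libraries, without passing the test. Without overlap between the groups, 2 of the 9 were higher and 3 lower, as were 16.6% and 24.9% of all genes tested.

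The plasminogen system, whose product plasmin activates several MMP precursors, had a median of -0.18 over 7 tested genes, 5 of them negative. Eno1, a glycolytic enzyme that also binds plasminogen, was at 241, 228 and 220.2 FPKM with CBR-5884, against 256 and 279 with solvent (limma adjusted p = 0.202), a value that near-identical copies of the gene make uncertain. Plgrkt, which encodes a plasminogen receptor, was at 53.6, 53.3 and 49.6 FPKM with CBR-5884, against 56.6 and 62.3 with solvent (limma adjusted p = 0.249). ADAM and ADAMTS genes, metalloproteases of a related family, had a median of -0.18 over 7 tested genes, 6 of them negative. Adam8 was at 342, 349.8 and 369.9 FPKM with CBR-5884, against 421 and 435 with solvent (log2 fold change -0.27, SE 0.05, limma adjusted p = 0.132). Adam15 was at 94.3, 112 and 112 FPKM with CBR-5884, against 137 and 142 with solvent (log2 fold change -0.40, limma adjusted p = 0.16). Adam8 and Adam15 were thus lower in all CBR-5884 libraries than in both solvent libraries, as were 24.9% of all genes tested.

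Cathepsins, lysosomal proteases that also degrade matrix, and their inhibitors had a median of 0.02 over 9 tested genes, with 5 positive. Ctsz was at 989, 1030 and 1030 FPKM with CBR-5884, against 1241 and 1273 with solvent (log2 fold change -0.31, SE 0.04, limma adjusted p = 0.101). Ctsk, the collagen-cutting cathepsin of osteoclasts, was at 19.6, 21.5 and 17.0 FPKM with CBR-5884, against 15.4 and 12.8 with solvent (log2 fold change 0.43, limma adjusted p = 0.2). Matrix substrates of the proteases had a median of -0.29 over 8 tested genes, 6 of them negative. Fn1, which encodes fibronectin, was at 56.5, 76.1 and 46.5 FPKM with CBR-5884, against 134 and 116 with solvent (log2 fold change -1.07, SE 0.23, limma adjusted p = 0.139). Col1a1, a chain of type I collagen, was at 4.67, 6.88 and 4.17 FPKM with CBR-5884, against 8.19 and 7.83 with solvent (limma adjusted p = 0.249). Neither gene overlapped between the groups. They were the 2 of the 8 tested substrates that were lower in every CBR-5884 library, as were 24.9% of all genes tested.

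Transcription factor genes known to act on MMP promoters had a median of -0.10 over 13 tested genes, 8 of them negative. Rela, a subunit of NF-kB, was at 28.7, 30.0 and 30.4 FPKM with CBR-5884, against 39.4 and 34.2 with solvent (log2 fold change -0.30, limma adjusted p = 0.169). Nfkb1, its partner, was at 35.1, 38.2 and 39.8 FPKM with CBR-5884, against 49.0 and 43.5 with solvent (log2 fold change -0.29, limma adjusted p = 0.193). Both were lower in all CBR-5884 libraries than in both solvent libraries. So were 7 of the 13 tested genes, and 2 were higher without overlap, beside 24.9% and 16.6% of all genes tested. The AP-1 genes Fos and Jun stood at log2 fold changes of 0.15 (limma adjusted p = 0.658) and 0.01 (0.92), and Stat6 at -0.01 (0.913). Fosl2 (log2 fold change -0.30, limma adjusted p = 0.368), Jund (-0.16, 0.346) and Junb (-0.10, 0.379), also AP-1 genes, were lower in every CBR-5884 library than in either solvent library.

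Genes most like a member in pattern were sought for the highest MMP and the highest TIMP, by the Euclidean distance between log2(FPKM + 1) values centred over the 5 libraries, among 5832 other genes with a mean of at least 10 FPKM. Nearest to Mmp12 were the glutathione transferase gene Gstm1 (distance 0.17), Mmp13 (0.23) and the cystine transporter gene Slc7a11 (0.24). Gstm1 was at 151, 199 and 131 FPKM with CBR-5884, against 99.8 and 95.6 with solvent, a value made uncertain by its close paralogs. Nearest to Timp2 were B4gat1 (0.023), Fam214b (0.036) and the ribosomal protein gene Rpl23 (0.037). With 5 libraries in 2 groups such distances are a description only.

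In bulk RNA a change in the share of a cell type cannot be told apart from a change of RNA per cell. All 8 macrophage markers were tested and none passed, with 4 positive and 4 negative log2 fold changes. The F4/80 gene Adgre1 overlapped between the groups, at 299 to 338 FPKM in the CBR-5884 libraries and 307 to 313 in the solvent libraries. Cd68 (log2 fold change 0.19, limma adjusted p = 0.132) and the CD11b gene Itgam (0.30, 0.182) were higher in every CBR-5884 library than in either solvent library. Cd14 (-0.27, 0.196) and Fcgr1 (-0.45, 0.333) were lower in every one. Of all genes tested, 16.6% were likewise higher and 24.9% lower without overlap. The 10 neutrophil markers, which matter for Mmp8, summed to 10.6 to 14.0 FPKM with CBR-5884 and to 11.6 to 23.0 with solvent, and Ly6g and Retnlg were at 0 throughout. S100a9 was at 0.93, 0.24 and 2.67 FPKM with CBR-5884, against 9.49 and 2.35 with solvent, and S100a8 was at 9.32, 10.6 and 10.0 FPKM with CBR-5884, against 10.1 and 7.03 with solvent. Ltf, Camp, Ngp and Cxcr2, too low to be tested, were lower in every CBR-5884 library than in either solvent library. The highest of these values was 1.56 FPKM, for Ngp in solvent replicate 3. The 16.6% and 24.9% above cover only genes with a mean of at least 1 FPKM. No such share is at hand for genes as low as Ltf, Camp, Ngp and Cxcr2. Elane and Mpo were near 0. The part of neutrophils in the Mmp8 values was not tested. The 8 stromal markers summed to 13.0 to 22.1 FPKM with CBR-5884 and to 21.1 to 23.4 with solvent, and the 7 osteoclast markers to 599.8 to 672.6 with CBR-5884 and 545.5 to 571 with solvent, with Calcr at 0. Most of the osteoclast sum was Atp6v0d2, at 569, 526 and 492 FPKM with CBR-5884, against 428 and 421 with solvent (limma adjusted p = 0.151). Of the 5 tested osteoclast markers, 2 had a positive log2 fold change, Atp6v0d2 (0.31) and Ctsk (0.43). The other 3 were negative, Acp5 (-0.45), Ocstamp (-0.25) and Dcstamp (-0.17), the last of which is the median of the list. The part of these cells in the values of Mmp13, Timp3 or Mmp14 was not tested. Mast cell and basophil markers summed to 1.1 FPKM or less in any library, and lymphoid and erythroid markers to 0.12 or less. Depth implied by coverage also differed, at 30230000 to 30700000 fragments in the CBR-5884 libraries and 28310000 to 28850000 in the solvent libraries, and its part in the results was not tested.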

How the data were processed

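RNA was sequenced as single reads of 75 bp from directional libraries, per the labels' protocols. The submitters' processing notes name Bowtie2, TopHat2, Cufflinks and the build mm10 (GRCm38). No source used here gives their versions, the annotation or the strand setting. The deposited files give an FPKM, a 95% interval and a coverage per transcript, which Cufflinks estimated separately for each library.

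GENCODE M21 gave the gene of each reference transcript (70923 of 71311, or 99.5%, matched). Assembled transcripts of at least 200 nt went to the gene on their strand that covered at least 50% of their bases. Transcripts left out held 64.0% to 70.3% of the summed FPKM but 8.6% to 10.2% of covered bases. Gene FPKM was the sum over transcripts. Reads implied are coverage times length over 75 bp.

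Genes with a mean of at least 1 FPKM were fitted with limma 3.58.1 (R 4.3.3) on log2(FPKM + 1), with a variance trend, two-sided, adjusted by Benjamini and Hochberg over all genes tested, and called below 0.05. Fold changes on this scale understate changes of low genes. The fit was tested on simulated data. Intervals of fold changes are unadjusted. The alternatives were other pseudocounts, filters, transcript sets, scalings, no variance trend, a replicate block, and leaving out each library, with FPM (FPKM times transcript length, summed over a gene) added after the data were seen. All 9 members are named, and of each list the 2 genes of smallest p where none passed. The markers in the last paragraph and Fos, Jun, Fosl2, Jund, Junb, Stat6, Lcn2, Mmp1a, Mmp1b, Mmp3, Mmp7, Mmp10, Mmp20, Timp4 and Tmem198b were named after their values were seen. The members and lists were chosen with earlier results of these data known. Promoter sequences are from RefSeq (GRCm38.p6).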

Additional observations from a re-analysis of the deposited data

How the results depend on the processing

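Mmp8, Mmp12, Mmp13 and Mmp19 kept a positive log2 fold change in all 17 alternatives, with ranges of 0.53 to 0.74, 0.66 to 0.99, 0.51 to 0.70 and 0.37 to 0.50 (limma adjusted p from 0.0278, 0.0613, 0.0298 and 0.0578 upward, to 0.331, 0.331, 0.331 and 0.341). The groups of Mmp8, Mmp12, Mmp13 and Mmp19 do not overlap. Leaving out a library, another pseudocount or filter, or no variance trend therefore could not change their sign. The replicate block gave the same fold changes as leaving out CBR-5884 replicate 4 (0.62 for Mmp8 in both). The alternatives are thus not separate checks. Timp2 stayed negative and Timp3 positive in the alternatives that tested them. On FPM 2 members were called instead of 0, Mmp8 (0.61) and Mmp13 (0.64), with 110 genes called higher and 181 lower over all genes tested, instead of 5 and 19. The other alternatives called no member. Timp1 turned positive with a pseudocount of 5 (0.0025), the most abundant reference transcript (0.18), TPM scaling (0.032), quantile normalization (0.040) and median ratios (0.027). Mmp14 turned negative with reference transcripts only (-0.27) and with the most abundant one (-0.27), where reference transcripts were at 0 in 2 libraries.

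Leaving out each library in turn, log2 fold changes ran from -0.14 to 0.32 for Mmp14 and from -0.24 to 0.18 for Timp1, and no member was called. Genes called higher ran from 8 to 11 and lower from 11 to 78, the highest without solvent replicate 3 (11 higher, 78 lower) and without solvent replicate 5 (9 higher, 57 lower); the lone solvent library is then assumed to vary like the other group. Genes called lower were 11 with a pseudocount of 0.1 and 33 without the filter. Genes called higher and lower were 3 and 6 with a mean of at least 5 FPKM, and higher 3 with a pseudocount of 5, 19 with reference transcripts only and 14 with the most abundant one; the cause was not tested. At an unadjusted p below 0.05 there were 780 genes higher and 1334 lower, against 1135 and 949 with TPM scaling, 1163 and 945 with quantile normalization and 1091 and 1001 with median ratios.

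The labels give replicates 3 and 5 in both groups. With the replicate block 2 genes were called higher and 1 lower, and no member was. Deviations from the group means of same-numbered libraries correlated at 0.07 and 0.08 over genes. With 2 solvent libraries these deviations mirror each other. CBR-5884 replicate 3 thus gave 0.07 with solvent replicate 3 and -0.07 with solvent replicate 5. The correlations therefore cannot decide whether same-numbered libraries are paired, and the main fit left the number out.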
